A study of Homo sapiens with 24 samples.

Results

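The change described here is the mean, over the non-small cell lung cancer lines A549, H441, H460 and H2009, of expression with the PKCδ shRNA δ193 minus expression with the scrambled shRNA δscr. All 24 of 24 arrays entered it, in 8 groups of 3 biological replicates, so that 12 arrays with each shRNA were set against each other within their own line. All 4 lines carry mutant K-ras. The study calls H2009 and H441 K-ras dependent and A549 and H460 K-ras independent, and here the lines carry equal weight. Each line stably expressed its shRNA, which a lentivirus introduced, and was kept in puromycin, so both arms share transduction, selection and an expressed hairpin. The sample labels call the arms knock-down and Scrambled. δ193 targets the coding region of PRKCD and no other PKCδ shRNA was arrayed. Depletion of PKCδ and any effect of the δ193 sequence on other transcripts therefore cannot be told apart here. Nothing in the sources used here says whether each stable line was a pool or a clone, or that the replicates came from separate transductions, so p-values measure the spread between these samples, which may be technical.

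PKCδ is a serine/threonine kinase of the PKC family. It is activated at membranes by diacylglycerol, the lipid that phorbol esters imitate, without a need for calcium. It is known for roles in apoptosis after DNA damage and, in cells with oncogenic K-ras, for support of survival and signaling to ERK. A small hairpin RNA is processed by Dicer and loaded into an Argonaute complex, which cleaves transcripts that match it along its length and can also lower transcripts that match its seed alone.

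Values are log2 RMA levels, the form in which the authors deposited them, with 1 value per transcript cluster (the probes that read 1 locus). Changes are differences of log2 values. An additive model with a term for the cell line and a term for the shRNA was fitted to 18417 genes in limma, and genes with an adjusted p below 0.05 that changed 1.25 fold or more count as called. Array medians lay between 4.78 and 4.91. H441 was the noisiest line, with a residual variance of 0.0504 against 0.0134 to 0.0215 in the other 3, and its δ193 replicates correlated least (0.982 at the lowest). The carcinoma cytokeratins KRT8, KRT18 and KRT7 lay above the 99th percentile of genes, while EPCAM ranged from 4.53 to 11.3 and CDH1 from 4.52 to 11.3 between lines. The leukocyte marker PTPRC and the fibroblast marker DCN lay at or under the 3.06th percentile. CD68, which other cell types also express, was the brightest immune marker, with a median of 9.83. The mean level of 4 immune markers ran from 5.07 to 5.66 on the arrays of both arms, that of 4 endothelial markers from 3.48 to 3.81 with δscr and from 3.46 to 3.84 with δ193, and that of 6 fibroblast markers from 4.31 to 4.70 and from 4.31 to 4.59. None of these immune, endothelial and fibroblast markers was called in limma, whereas the epithelial marker CDH1 was called lower (-0.52).

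PRKCD, the targeted gene, fell in every line and was the gene with the largest mean decrease of all 18417 tested. In H2009 it read 8.20, 8.21 and 8.11 with δscr and 5.96, 5.95 and 5.86 with δ193. In H441 it read 8.11, 7.71 and 7.76, then 5.69, 4.68 and 6.00. In A549 it read 6.70, 7.03 and 7.19, then 5.61, 5.81 and 5.71. No array with δ193 reached the lowest one with δscr of any line, and A549 began lowest. In H460 it read 8.27, 8.34 and 8.35, then 6.42, 6.28 and 6.16. The mean change was -1.99 (SE 0.13; limma, adjusted p = 9.77e-11), which leaves 25.2% of the δscr level. The part left was 18.9% in H441, 21% in H2009, 24.4% in H460 and 41.8% in A549, and these changes differed between lines (limma F test, adjusted p = 0.0261). With δscr, PRKCD stood between the 66.9th and the 83.1st percentile of genes, and with δ193 between the 46.4th and the 56.9th.

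Of the 18417 genes, 601 (3.26%) changed in the mean over lines, 365 lower (1.98%) and 236 higher (1.28%). A fit of the 8 group means, whose spread is that between replicate arrays alone, called 395 lower (2.14%) and 274 higher (1.49%), among them all 365 lower genes. The changes were small. The median was -0.42 among the lower genes and 0.43 among the higher ones, and 7 lower and 8 higher genes changed by 2 fold or more. Among the genes that fell furthest with arrays apart in all 4 lines were the small GTPase RAB23, the purine enzyme ADA, the lysosomal enzyme GALC, the telomere protein TERF2IP, the splicing regulator RBFOX2, the cytokine receptor LIFR, the sorting nexin SNX27 and the integrin activator FERMT2. Fewer increases had arrays apart in all 4 lines. The largest of these was that of TCN1, which binds vitamin B12, followed by that of the repressor HES7.

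RAB23 restrains hedgehog signaling and acts in cilia and endosomes. In H2009 it read 7.85, 7.58 and 7.61 with δscr and 6.24, 5.93 and 6.02 with δ193, and in H441 6.84, 6.95 and 6.75 against 5.54, 5.29 and 5.18. In A549 it read 6.84, 6.74 and 6.71 against 5.30, 5.30 and 5.22, and in H460 6.90, 6.96 and 7.07 against 6.10, 6.14 and 5.74. No array with δ193 reached the lowest array with δscr, whichever line it came from. The mean change was -1.40 (SE 0.07; limma, adjusted p = 1.17e-12), and H460 had the smallest (-0.99). ADA, which deaminates adenosine and whose loss impairs lymphocytes, began from different levels in the lines. It read 7.20, 6.95 and 7.23 in H2009 with δscr against 5.86, 5.54 and 5.83 with δ193, and 7.34, 7.44 and 7.53 in H441 against 6.29, 6.28 and 5.84. In A549 it read 9.03, 8.97 and 8.70 against 7.62, 7.71 and 7.67, and in H460 8.09, 8.11 and 8.16 against 7.06, 7.08 and 6.93. So the arrays overlapped between lines but never within one. The mean change was -1.25 (SE 0.06; limma, adjusted p = 3.68e-13), from -1.38 to -1.10 over the lines.

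Values of 8 genes separated all 12 δ193 arrays from all 12 δscr arrays, whatever the line, and all 8 were lower (0.0434% of genes, with 0 higher). They are PRKCD, RAB23, TERF2IP, SNX27, RBFOX2, TMEM245, DGKA and CALU; CALU was named after its values were seen. TERF2IP encodes RAP1, a shelterin protein that also acts on NF-κB, and its δscr arrays lay between 7.15 and 7.57 and its δ193 arrays between 6.09 and 6.74. SNX27 works with retromer to recycle receptors out of endosomes, and its arrays lay between 8.30 and 9.03 and between 7.38 and 8.24. For RBFOX2, which sets exon choice in mesenchymal cells, the ranges were 8.02 to 8.39 and 7.06 to 7.80. These 3 genes began from much the same level in each line. DGKA, the kinase that turns diacylglycerol into phosphatidic acid, had a narrower gap, with 7.69 as its lowest δscr array and 7.62 as its highest δ193 array. TMEM245, a membrane protein of poorly known function, ranged from 9.02 to 9.68 and from 7.92 to 8.53. CALU, a calcium-binding protein of the secretory pathway, ranged from 8.69 to 9.30 and from 7.70 to 8.59.

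**Figure D1:**
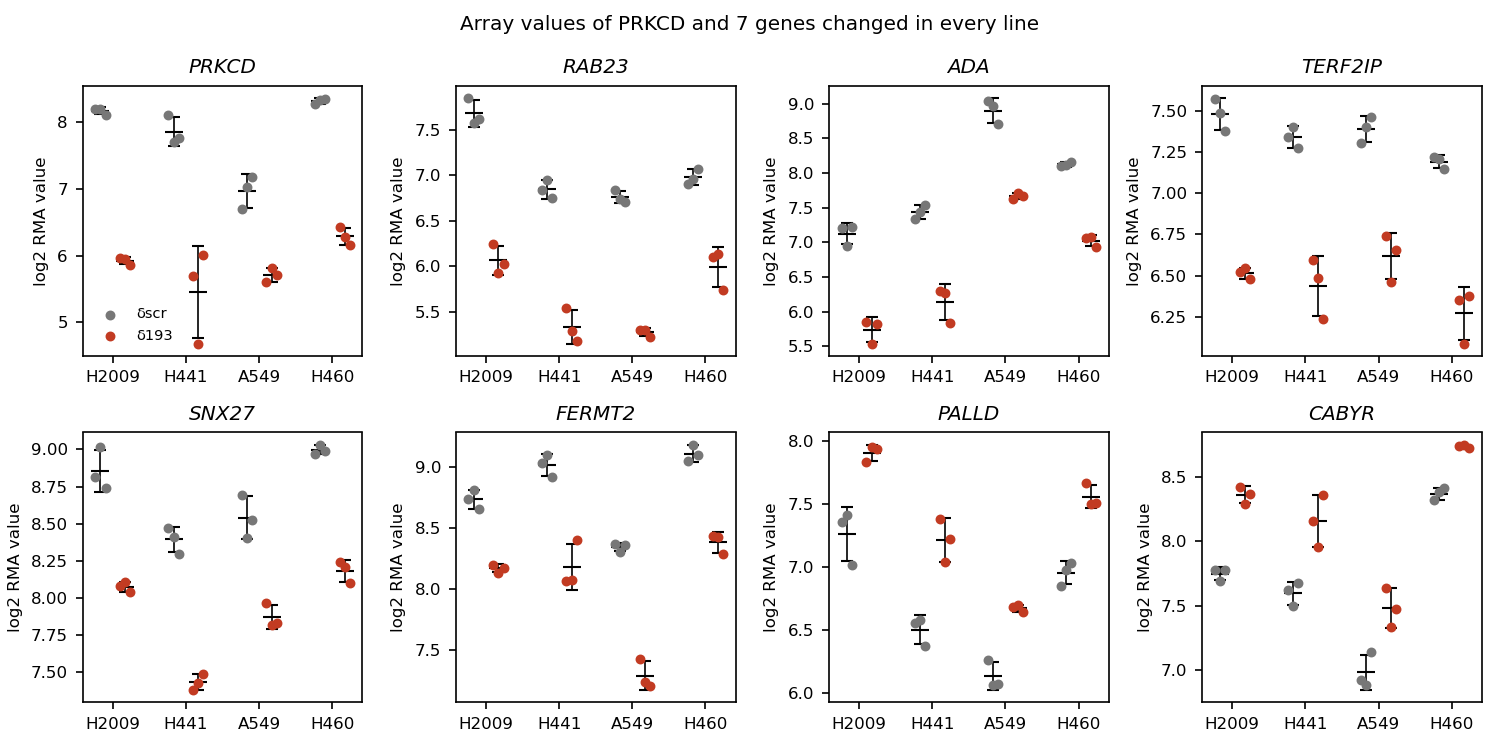
Log2 RMA level of 8 genes on each array (vertical axes), by cell line (horizontal axes), with δscr in grey and δ193 in red; black bars are the mean ± SD of 3 arrays. The 2 colours do not overlap within any line for any gene shown, and for PRKCD, RAB23, TERF2IP and SNX27 they do not overlap between lines.

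The other genes with large shared decreases had arrays apart in every line. GALC, which breaks down galactosylceramide in lysosomes, changed by -0.95 (SE 0.10), with -1.58 in H441 and -0.56 in both A549 and H460. PON2, a lactonase of mitochondria and the endoplasmic reticulum that limits oxidative stress, changed by -0.91 (SE 0.11), from -1.70 in H441 to -0.41 in A549. Both thus fell most in H441. HOXA2, a homeobox factor, changed by -0.91 (SE 0.08), and the leukemia inhibitory factor receptor LIFR by -0.82 (SE 0.06). With δscr, LIFR read 5.40 to 5.64 in A549 and 7.50 to 8.26 in the other lines, and its changes lay between -0.93 and -0.75. ELF4, an ETS transcription factor, changed by -0.81 (SE 0.06), FAM171A1 by -0.76 (SE 0.07) and the kinase STK38, a member of the NDR group in Hippo signaling, by -0.72 (SE 0.11). STK38 changed by -1.52 in H441 and by -0.29 in A549, where it was not called (limma, adjusted p = 0.293). The largest adjusted p of these genes was 0.000138, that of STK38, by limma.

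Among increases with arrays apart in all 4 lines, that of TCN1 was the largest (0.92, SE 0.13; limma, adjusted p = 4.47e-05). In H441 TCN1 read 4.57, 4.15 and 4.54 with δscr and 5.79, 5.96 and 4.61 with δ193, so that the third δ193 replicate barely cleared the δscr range. HES7, a repressor of the Notch-driven segmentation clock, changed by 0.74 (SE 0.09), and SCARNA9L, a small nuclear RNA of Cajal bodies, by 0.71 (SE 0.12). HHIPL2 changed by 0.68 (SE 0.10), and its change of 1.46 in A549 stood far above the 0.30 to 0.55 of the other lines. PALLD, which bundles actin in stress fibers, was the most even of the increases. It read 7.35, 7.41 and 7.01 in H2009 with δscr against 7.83, 7.95 and 7.93 with δ193, and 6.56, 6.58 and 6.37 in H441 against 7.38, 7.04 and 7.22. In A549 it read 6.26, 6.06 and 6.07 against 6.68, 6.69 and 6.64, and in H460 6.85, 6.97 and 7.03 against 7.66, 7.50 and 7.50. Its mean change was 0.63 (SE 0.05; limma, adjusted p = 8e-09). The sperm protein CABYR, which binds calcium, changed by 0.51 (SE 0.05), the uridine phosphorylase UPP1 by 0.46 (SE 0.08), the microtubule protein MAP2 by 0.43 (SE 0.06) and ATG4D, a protease that processes the autophagy protein ATG8, by 0.39 (SE 0.05). TRIB3, WARS1 and CEBPG, 3 genes induced by amino acid or endoplasmic reticulum stress, changed by 0.63, 0.48 and 0.42. Each of these changes was largest in H441. CNRIP1, SPRYD3 and TMEM158 changed by 0.45, 0.45 and 0.44. The largest adjusted p of the increases named here was 0.0014, that of TRIB3. Tested within single lines in limma, only PALLD and CABYR of these increases had an adjusted p below 0.05 in all 4. TRIB3 had one in H441 and A549, and WARS1, CEBPG, UPP1 and SCARNA9L in H441 alone. For TCN1 it was 0.405 in H2009, and for TMEM158 0.824 in A549. Arrays apart in a line thus do not show a called change there. When any 1 line was left out, the shared decreases and increases named so far remained called except CEBPG, which without H441 changed by 0.30 and missed the fold.

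**Figure D2:**
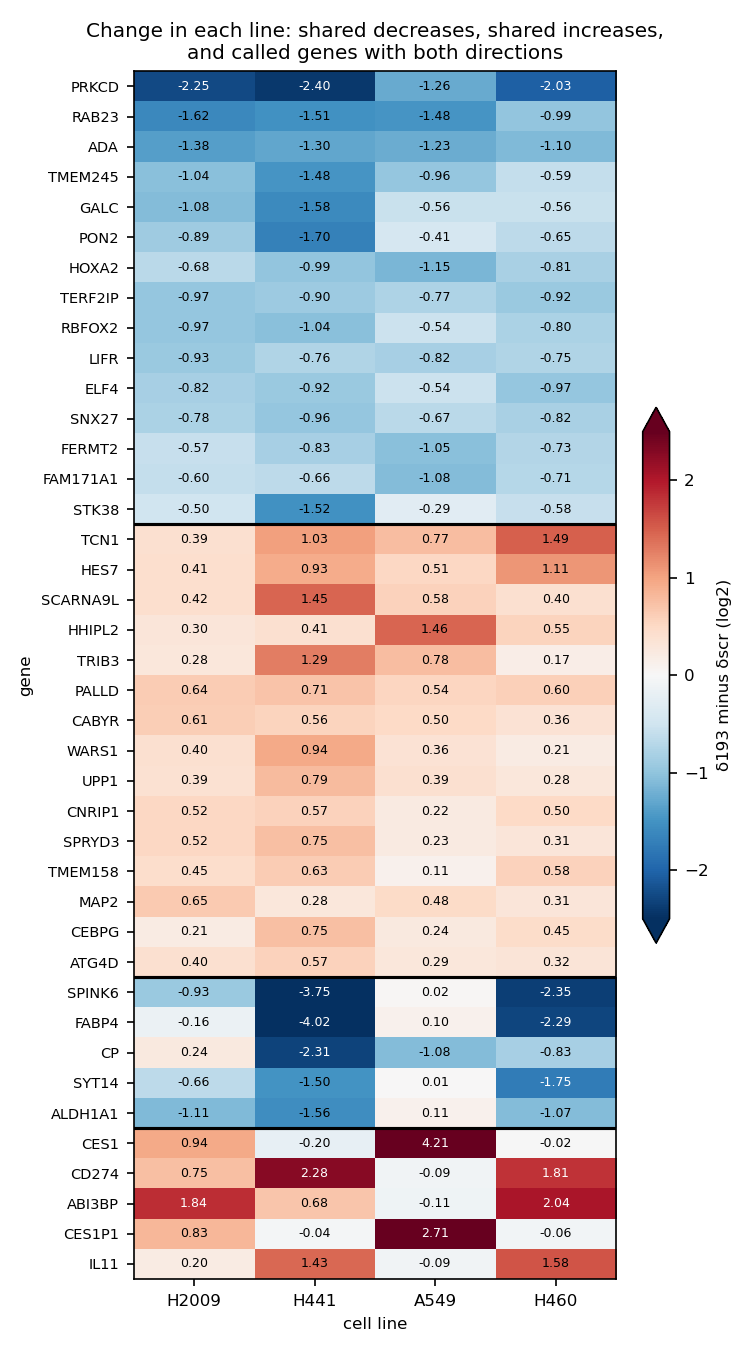
Change with δ193 (log2) in each line, as colour and number. Blocks split by black lines hold the largest shared decreases, the largest shared increases, and called genes with line changes of both signs (lower, then higher). Rows in the upper blocks keep 1 sign across the 4 lines, while FABP4 runs from -4.02 in H441 to 0.10 in A549 and CES1 from -0.20 in H441 to 4.21 in A549.

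The consistency of the mean changes varied widely. Of the 365 lower genes, 256 (70.1%) were lower in all 4 lines and 103 in 3. Of the 236 higher genes, 169 (71.6%) were higher in all 4 lines and 61 in 3. A gene with a large mean is bound to show this more often than others, and among all genes 8.63% were lower and 10.3% higher in all lines. A stricter reading, by which every δ193 array lay outside the δscr range on the same side in all 4 lines, held for 91 of the lower and 23 of the higher genes, against 0.695% and 0.25% of all genes. That count of higher genes was sensitive to 1 array, since 58 genes met it without the first δscr replicate of A549. The F test across lines was passed by 208 of the lower genes (57.0%) and 119 of the higher ones (50.4%), against 12.7% of the genes not called and 14.1% of all genes.

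When the 4 lines and not the 24 arrays served as replicates, 11 genes were called (0.0597%), and 1879 had an unadjusted p under 0.05 in limma, 315 of the 365 lower and 213 of the 236 higher genes among them. The 11 genes were PRKCD, ADA, RAB23, TERF2IP, LIFR, SNX27, HOXA2, ELF4, PSME3 and RNF185, which fell, and PALLD, which rose. PSME3, an activator of the nuclear proteasome, changed by -0.63 (SE 0.04), and RNF185, a ubiquitin ligase of the endoplasmic reticulum, also by -0.63 (SE 0.06); both were named after their values were seen. The lowest adjusted p was that of ADA (0.00747) and the highest that of RNF185 (0.0486). PRKCD itself had 0.0307. This test is limited by 4 values per gene.

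The evenness of a change was measured as the SD over the 4 line changes in percent of the mean change. Among 91 called genes that kept their sign in all lines and changed by at least 1.5 fold, the median was 60.5% for the 51 lower and 56.7% for the 40 higher. It was under 25% for 13 genes, 11 of them lower. TERF2IP was the most even at 9.34%, followed by ADA at 9.54%, LIFR at 9.80%, PSME3 at 10.6% and PALLD at 11.7%. PRKCD stood at 25.6%, so the changes in these genes were more even over the lines than that of the gene the shRNA targets. SPRY4, an inhibitor of receptor tyrosine kinase signaling that ERK induces, was the other increase under the limit, at 23%. For TERF2IP, ADA, LIFR, PSME3 and PALLD the F test found no difference between lines (adjusted p from 0.626 to 0.875 in limma), which does not show that the lines respond alike.

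**Figure D3:**
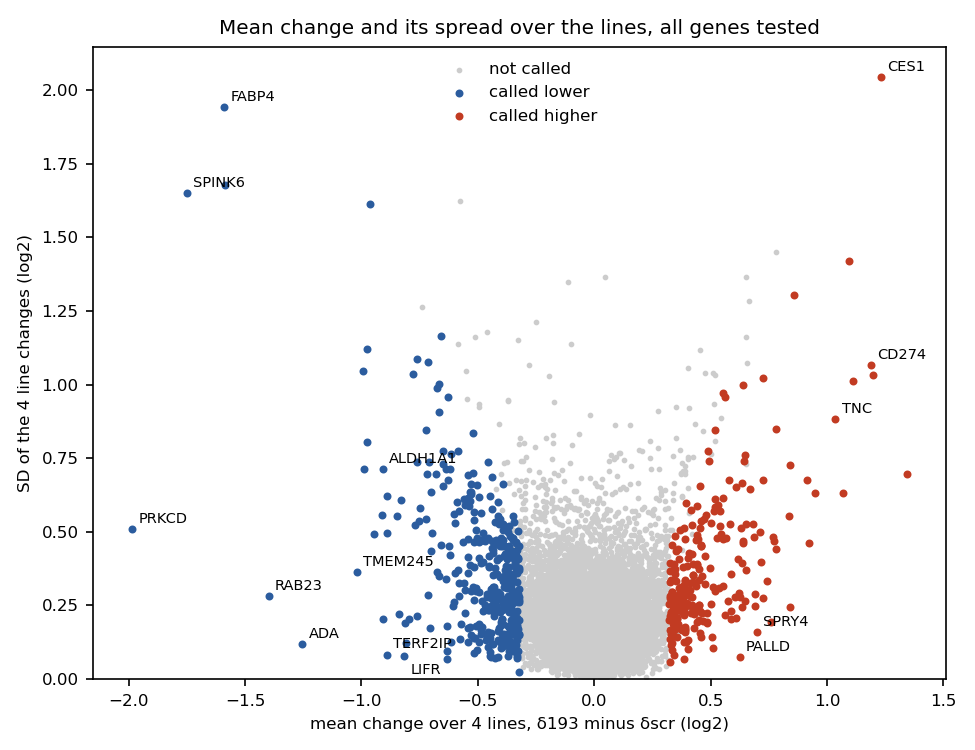
Mean change over the 4 lines (horizontal axis, log2) and SD of the 4 line changes (vertical axis, log2) for the 18417 genes, with genes called lower in blue, called higher in red and not called in grey. ADA, TERF2IP, LIFR and PALLD lie near the bottom, where the lines moved by like amounts, while FABP4, SPINK6 and CES1 lie near the top, where 1 or 2 lines set the mean.

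PRKCD fell least in A549, where its change was 56.4% of the mean of the other 3 lines. It began lowest there, at 6.70 to 7.19 with δscr. With δ193 it ended at 5.61 to 5.81 in A549, against 5.86 to 5.96 in H2009, 6.16 to 6.42 in H460 and 4.68 to 6.00 in H441. The smaller change in A549 therefore does not mean that more PRKCD signal was left there than in H2009 or H460. Over the called genes of 1 sign in all lines, the median of this ratio was 67.3% for lower and 61.5% for higher genes, and it was 68.4% over all 3488 genes with 1 sign. The change in A549 was the smallest of the 4 lines for 100 of 256 lower genes (39.1%) and 78 of 169 higher genes (46.2%), against 31.9% of all genes with 1 sign. That in H441 was the largest for 143 (55.9%) and 76 (45.0%), against 41.8%. The full order of PRKCD (H441, H2009, H460, A549) was seen in 29 lower genes (11.3%) and 18 higher genes (10.7%), against 7.57% of all. Among the shared decreases named above the ratio went from 33.4% for STK38 to 164% for FAM171A1, and among the shared increases from 19.3% for TMEM158 to 345% for HHIPL2. It was 149% for FERMT2, 139% for HOXA2, 108% for RAB23, 102% for LIFR and 97.7% for ADA. These fell in A549 about as much as elsewhere or more. GALC at 52.4%, RBFOX2 at 57.9% and ELF4 at 59.8% were near PRKCD. With 4 lines no relation between the size of the PRKCD change and that of another gene was tested.

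Averaged over the 90 lower genes other than PRKCD with arrays apart in every line, A549 went from 8.18, 8.15 and 8.15 to 7.74, 7.70 and 7.69. H441 went from 7.72, 7.71 and 7.63 to 6.96, 6.95 and 6.97. These 3 δ193 arrays of H441 were alike in this average although PRKCD on them ran from 4.68 to 6.00. H2009 went from 7.94, 7.91 and 7.84 to 7.41, 7.34 and 7.34, and H460 from 7.77, 7.79 and 7.81 to 7.35, 7.35 and 7.32. The fall was thus largest in H441. Over the 23 higher genes, H441 went from 6.98, 6.92 and 6.94 to 7.73, 7.69 and 7.50, and A549 from 6.70, 6.63 and 6.64 to 7.10, 7.08 and 7.05. The genes were chosen for this separation, so the averages are a description.

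**Figure D4:**
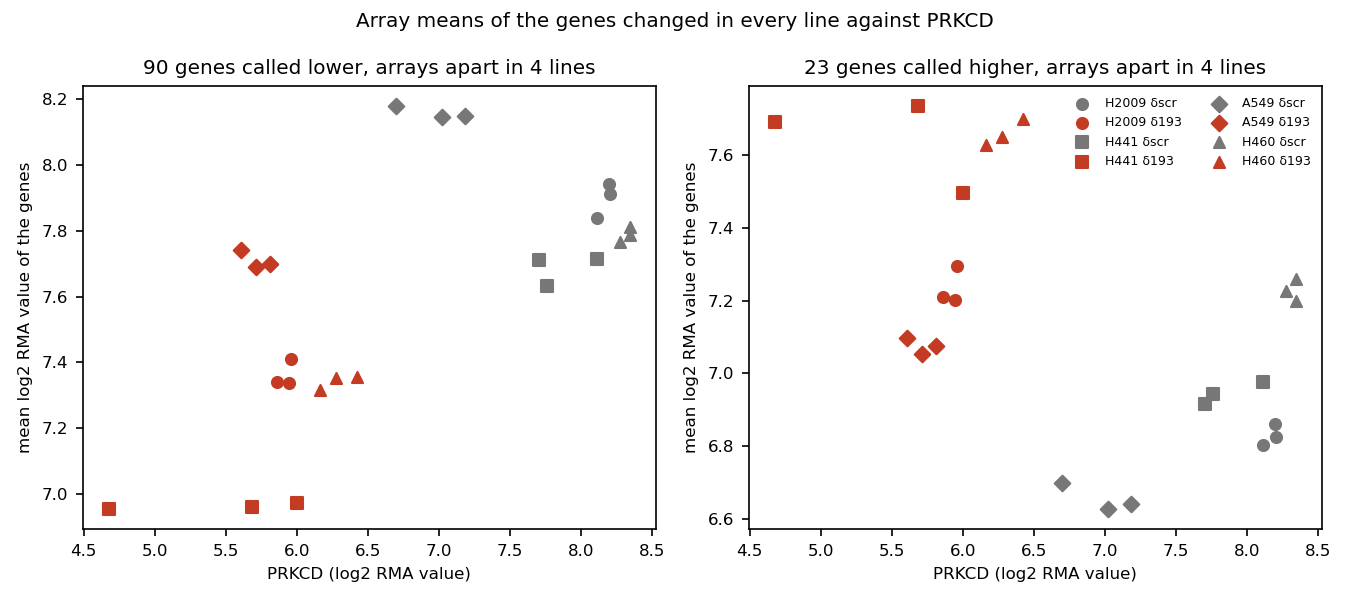
PRKCD level (horizontal axes) and mean level of the genes called with arrays apart in all 4 lines (vertical axes), both log2 RMA, 1 point per array, with shapes for lines and colour for the shRNA (90 lower genes at left, 23 higher genes at right). Within each line δ193 arrays sit to the left of δscr arrays and lie below them at left and above them at right; the 3 δ193 arrays of H441 spread along PRKCD but are level in the left panel.

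Called genes that did not move in 1 direction in all lines were led by SPINK6, FABP4, CP, SYT14 and ALDH1A1 among decreases and CES1, CD274, ABI3BP, CES1P1 and IL11 among increases. SPINK6, an epidermal protease inhibitor, changed by -1.75 in the mean but by -3.75 in H441 and 0.02 in A549, where it stood at 3.18 to 3.32 with δscr. FABP4, a fatty acid carrier, changed by -1.59, through H441 (-4.02) and H460 (-2.29). In H2009 and A549 both δscr and δ193 arrays of FABP4 lay at 3.0 or less, near the bottom of the range. FABP4 missed the threshold without H441 (-0.78) and without H460 (-1.36). The mean of CES1, a carboxylesterase, was 1.23 and came mostly from A549 (4.21), where the array values went from between 6.28 and 6.79 to between 10.36 and 10.95. Without A549 the mean of CES1 was 0.24 (limma, adjusted p = 0.246). Without any 1 of 4 A549 arrays it was 1.05 to 1.11 and narrowly missed the threshold (limma, adjusted p from 0.0502 to 0.0511). CES1 missed the threshold by more without H2009 (1.33; limma, adjusted p = 0.0864) and with a trended and robust spread (limma, adjusted p = 0.0635). CES1P1 is a pseudogene of CES1, and signal from CES1 cannot be told apart from its own; it too was lost without A549 (0.24) or H2009 (0.87). CD274, the immune checkpoint ligand PD-L1, changed by 1.19 (SE 0.23), from 2.28 in H441 to -0.09 in A549, where it was low with either shRNA. ABI3BP and IL11 also had the opposite sign in A549 (-0.11 and -0.09), and IL11 missed the threshold without H441 (0.56) or H460 (0.51). A549 was the line of opposite sign for 7 of these 10 genes, with changes between -0.11 and 0.11. For CP, the copper carrier ceruloplasmin, it was H2009 (0.24), and for CES1 and CES1P1 the lines were H441 and H460. None of these opposite changes was called within its line (limma, adjusted p from 0.312 to 0.994). The signs thus do not show that any line responded in the opposite direction.

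Gene lists are described by their called members beside the 1.98% lower and 1.28% higher among all genes. Counts at an unadjusted p under 0.05 in limma stand beside 2015 lower and 2165 higher of all 18417 genes. Of 13 measured genes of the protein kinase C family, PRKCD fell and PRKD1, a protein kinase D that PKCs phosphorylate, rose by 0.39 (SE 0.07), with 0.71 and 0.59 in H2009 and H441 against 0.20 and 0.07 in A549 and H460. Without H2009 it changed by 0.29 and missed the fold. PRKCI, an atypical PKC, changed by -0.03 (SE 0.05) and the PKC-related kinase PKN2 by -0.04 (SE 0.06). The median over the family was -0.04, and over all genes 0.01. Among 38 genes that make, use or break down diacylglycerol, 3 were called lower and 0 higher. In limma 5 fell and 5 rose at an unadjusted p under 0.05. MGLL, which hydrolyzes monoacylglycerol, fell by 0.63, DGKA by 0.58 and the phospholipase PLCE1 by 0.42, a call lost without H460 (-0.29). PLCG2 and PLPP2, the brightest of the others, changed by -0.01 and 0.08. At an unadjusted p under 0.05 in limma, 6 of 25 reported substrates and partners of PKCδ were lower and 5 higher. Of the 25, 1 was called higher and 0 lower. It was MCL1, a survival protein of the BCL2 family, with 0.33 (SE 0.09); with any of 5 H441 arrays left out its change was 0.26 to 0.32 and missed the fold, and without H2009, H441 or H460 (0.36, 0.19 and 0.36) or with array weights (0.27) the call was lost too. Phosphorylation of these proteins is not read by the arrays.

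Of 45 measured genes that phorbol esters induce, 6 rose and 1 fell, with a median of 0.17. IL6 rose by 0.91, IL11 by 0.78, the transcription factor EGR1 by 0.77, the EGF receptor ligand EREG by 0.59, and SPHK1 and FOS, named after their values were seen, by 0.46 and 0.45. CXCL1, a neutrophil chemokine, fell by 0.54, and by 1.11 in A549. In H460 EGR1 read 6.26, 6.36 and 6.24 with δscr and 7.30, 7.36 and 7.34 with δ193. In H441 it read 6.35, 6.15 and 6.47 against 7.08, 9.25 and 6.33, so the first 2 δ193 replicates stood above the δscr arrays and the third among them. IL6 showed the same split in H441, with 8.83, 10.15 and 6.63 with δ193 against 6.62 to 7.51. Over the 7 called members, the H441 δ193 arrays averaged 7.80, 8.62 and 7.0 and the δscr arrays 6.93 to 7.10. Without the third H441 δ193 replicate 9 members were called higher, without A549 11 and without H460 1. Without H460 the changes were 0.81 for IL6, 0.67 for EGR1, 0.50 for EREG, 0.37 for SPHK1 and 0.37 for FOS. IL6 missed the threshold also without H2009 (0.89), EGR1 without A549 (0.80), SPHK1 without H441 (0.24) and CXCL1 without A549 (-0.36).

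Of 33 genes that ERK induces, several of which feed back on it, 5 rose and 0 fell, with a median of 0.11. In limma 13 rose and 1 fell at an unadjusted p under 0.05. SPRY4 rose by 0.70 (SE 0.08; limma, adjusted p = 3.28e-06). In H2009 it read 6.29, 6.17 and 5.93 with δscr and 7.12, 6.92 and 7.17 with δ193, and in A549 6.32, 6.08 and 6.10 against 6.93, 6.80 and 6.65. In H460 it read 6.46, 6.58 and 6.62 against 7.21, 7.05 and 7.17. Only in H441 did the groups overlap, since the δ193 arrays read 7.37, 7.29 and 6.48 and the δscr arrays up to 6.56. DUSP5, a nuclear ERK phosphatase, rose by 0.65, the ETS factor ETV4 by 0.41, with 0.86 in H2009 and 0.21 to 0.35 elsewhere, and SPRY2, named after its values were seen, by 0.37. EGR1 is in this list too. The call of SPRY2 was lost without the second H441 δ193 replicate (0.31) and without the second H460 δscr replicate (0.32), and without H441 (0.27). Without H460 2 of the list were called, and DUSP5 changed by 0.61 and SPRY2 by 0.24. ETV4 missed the fold without H2009 (0.26). Over the 5 called genes, the H441 δ193 arrays averaged 7.98, 8.49 and 7.26 and the δscr arrays 6.99 to 7.17.

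Of 34 genes of the unfolded protein and integrated stress responses, 5 rose and 0 fell, with a median of 0.17. An unadjusted p under 0.05 in limma was reached by 13 that rose and 1 that fell. ALDH1L2, a mitochondrial folate enzyme, rose by 0.72 (SE 0.17), TRIB3, a pseudokinase that ATF4 induces, by 0.63, ASNS, asparagine synthetase, by 0.59 (SE 0.14), PHGDH, the entry to serine synthesis, by 0.45 (SE 0.09) and CEBPG by 0.42. The chaperones of the endoplasmic reticulum HSPA5 and HSP90B1, chosen after their values were seen, changed by 0.06 and -0.01. ASNS read 7.55, 7.70 and 7.56 in H2009 with δscr and 8.27, 8.21 and 8.30 with δ193, and 7.50, 7.56 and 7.40 in A549 against 8.25, 8.25 and 8.13. In H441 it read 8.41, 8.36 and 8.36 against 9.75, 10.21 and 8.49, with the third replicate again close to δscr. In H460 it read 7.82, 7.84 and 7.74 against 7.68, 7.71 and 7.57, below δscr. PHGDH and ALDH1L2 also had negative changes in H460 (-0.06 and -0.29). None of the 3 was called within H460 (limma, adjusted p from 0.638 to 0.897), so no decrease there is shown. Over the 5 called genes, the H441 δ193 arrays averaged 9.13, 9.34 and 8.14, and δscr arrays 8.0, 7.88 and 7.84. Without the third H441 δ193 replicate 7 members were called, and without H2009 or without A549 3 were. ALDH1L2 then changed by 0.60 and 0.63 and ASNS by 0.56 and 0.54.

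The phorbol ester and stress lists have textbook binding sequences, so the promoters, from 250 bases before to 50 after the RefSeq start (GRCh38.p14), were searched on both strands for TGAGTCA, which AP-1 binds, and for TGATGNAA, the core of the element that C/EBP and ATF proteins bind. The 2 searched sequences do not contain each other. Of 14237 tested genes with a promoter in the table, 506 (3.55%) held the first and 361 (2.54%) the second. The first was found in 5 of 275 promoters of lower genes (1.82%), 10 of 183 of higher genes (5.46%) and 7 of 36 of the phorbol ester list (19.4%). The second was found in 8 of 275 (2.91%), 5 of 183 (2.73%) and 5 of 30 of the stress list (16.7%). Matches in 7 of the called genes named here are shown, each with 10 bases on either side, 5′ to 3′ on the strand of the match. The match itself is in capitals. IL11, OSGIN1, ASNS and TCN1 rose and RAB5B, FAM171A1 and PLCE1 fell. These 7 are not every named gene with a match. The first sequence was found in 2 of the 7 called phorbol ester genes, and of these 2 IL11 alone is shown.
IL11, chr19:55370543-55370569, minus strand: gcagggagggTGAGTCAggatgtgtca
OSGIN1, chr16:83953133-83953159, minus strand: ttcataagcgTGAGTCAgcaggggccc
RAB5B, chr12:55973729-55973755, plus strand: tagatgtttaTGAGTCAaaaggcgggg
ASNS, chr7:97872459-97872486, minus strand: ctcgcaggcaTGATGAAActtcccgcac
FAM171A1, chr10:15371490-15371517, minus strand: tgacctggtgTGATGAAAagggctccgc
PLCE1, chr10:94088979-94089006, minus strand: tgaaatgaaaTGATGTAAtacccagaat
TCN1, chr11:59866621-59866648, plus strand: tttgtccatgTGATGTAAtaaataagga
Relative to the start, in bases, the match centers lie in this order at -93, -94, -207, -64, -214, -33 and -147. A match describes letters and is no measured binding.

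Among gp130 receptor chains LIFR and IL6ST fell, and among cytokines that signal through gp130 IL6, IL11 and OSM rose in the mean. The cytokines LIF and CTF1 and the receptor chains OSMR, IL6R, IL11RA, CNTFR and IL27RA were not called. Of 37 genes of the group and of JAK-STAT signaling, 3 fell and 3 rose, with a median of 0.00. LIFR fell, as did IL6ST, the shared signaling chain gp130 (-0.56, SE 0.06; limma, adjusted p = 6.37e-07), and the kinase JAK1 (-0.40, SE 0.05); both had arrays apart in all 4 lines and were named after their values were seen. JAK1 changed by -0.67 in A549 and by -0.30 to -0.32 elsewhere, and without A549 (-0.31) it missed the fold. The cytokines IL6, IL11 and OSM rose, but changed by -0.05, -0.09 and 0.02 in A549. OSM changed by 0.64 (SE 0.20; limma, adjusted p = 0.04), with 1.71 in H441, and the call was lost with any of 9 arrays left out (0.54 to 0.65), and without H2009, H441 or H460 (0.74, 0.28 and 0.69), with a trended and robust spread and after quantile normalization again.

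Integrins are the receptors that anchor cells to the matrix. Of 25 subunits measured, 6 fell and 0 rose in limma, with a median of -0.02 over the list, and at an unadjusted p under 0.05 10 fell and 0 rose. ITGA2, of the collagen receptor, fell by 0.60, ITGB3 by 0.58, ITGB6 by 0.48, ITGA3, of a laminin receptor, by 0.48, and, outside the naming rule, ITGAV by 0.43 and ITGB5 by 0.34. ITGB3, which pairs with ITGAV to bind vitronectin, was the one with the most even fall. In H2009 it read 5.61, 5.74 and 5.69 with δscr and 5.0, 4.90 and 4.91 with δ193, and in H441 5.99, 6.18 and 5.69 against 5.21, 5.58 and 4.51. In A549 it read 4.83, 5.17 and 5.18 against 4.51, 4.53 and 4.62, and in H460 5.35, 5.48 and 5.45 against 5.10, 5.27 and 5.26. These are low values, at the 42nd percentile of genes, but the groups did not overlap in any line. The falls in A549 (-0.50) and H460 (-0.22) were not called within the line (limma, adjusted p = 0.0966 and 0.594). By qRT-PCR, the study reports no consistent change of ITGAV in A549 or H460 and a fall in its K-ras dependent lines. It describes ITGB3 as similar. The other subunits depended more on the line. ITGB6 changed by -1.18 in A549 and by -0.34 to -0.17 elsewhere. ITGA3 and ITGAV changed most in H441 (-1.16 and -0.80) and by -0.06 and -0.07 in A549. ITGA2 changed by -1.03 in both H2009 and H441 and by 0.05 in H460. Over the 6 called subunits, the H441 δ193 arrays averaged 7.0, 7.16 and 6.37 and the δscr arrays 7.50 to 7.76. The third δ193 replicate was thus the lowest here. Without H441 3 subunits were called, with ITGA3 at -0.25, ITGAV at -0.31 and ITGB5 at -0.20. ITGA2 missed the threshold without H2009 (-0.46), ITGB6 the fold without A549 (-0.25), and ITGB5 both without H460 (-0.26) and the fold with any of 5 arrays left out (-0.32 to -0.29) or with array weights (-0.29). ITGB1, the common β chain, likewise outside the naming rule and chosen, as ITGAV and ITGB5 were, after its values were seen, changed by -0.10 (SE 0.05).

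Among 42 focal adhesion adaptors and actin linkers, 3 fell and 3 rose, with a median of -0.01. FERMT2, or kindlin-2, which binds integrin β tails, fell by 0.80 (SE 0.06), MYPN, a relative of palladin known from striated muscle, by 0.70 (SE 0.12) and TNS3, a tensin, by 0.38. PALLD, FERMT3 and ZYX rose, by 0.63, 0.46 and 0.35. FERMT3, the kindlin of blood cells, rose in H2009, H441 and H460 (0.81, 0.67 and 0.57) and not in A549 (-0.21), where it was lowest with δscr (5.06 to 5.38), and missed the threshold without H2009 (0.34). TNS3 was lost without H441 (-0.30) or H460 (-0.28) and ZYX, a zyxin of stress fibers, without H441 (0.31) or H460 (0.32). TNS3 and ZYX were named after their values were seen. The 2 kindlins thus moved oppositely in 3 lines. Of 35 endosomal Rab and retromer genes, 3 fell and 0 rose, with a median of -0.05. Without adjustment 10 fell and 3 rose at a p under 0.05 in limma. The 3 called were RAB23, SNX27 and the early endosome GTPase RAB5B (-0.45, SE 0.07), each with arrays apart in all lines. RAB7A and RAB5C, the brightest of that list, changed by -0.01 and -0.13 (SE 0.04 and 0.05). TERF2IP was the only one of 14 shelterin and telomere genes called.

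Of 58 lysosomal hydrolases and membrane proteins, 9 fell and 0 rose, with a median of -0.09. At an unadjusted p under 0.05 in limma 24 fell and 3 rose, against 2015 and 2165 of all 18417 genes. GALC fell by 0.95, the protease CTSH by 0.83 (SE 0.13), LAPTM5 by 0.71 (SE 0.16) and the acid ceramidase ASAH1 by 0.55 (SE 0.07). GALC and ASAH1 had arrays apart in every line. CTSH changed by 0.02 in H2009, where it was lowest, and by -1.42 in H441, and LAPTM5 changed by -1.71 in H2009 and -0.04 in H460. Of the 58, 26 differed between lines by the F test, against 2595 of all 18417 genes (14.1%). Without H441 5 were called, and LAPTM5 missed the threshold without H2009 (-0.38).

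Some lists bear on the hairpin itself. Among 21 genes of the RNA interference machinery, 1 rose and 0 fell, with a median of -0.06. In limma 4 fell and 3 rose at an unadjusted p under 0.05. The called gene was TNRC6C, a partner of Argonaute in silencing, which rose by 0.38 (SE 0.07), with 0.78 in A549. Without A549 TNRC6C changed by 0.25 and missed the fold. Of 43 interferon-stimulated genes, which double-stranded RNA can induce, 3 fell and 1 rose, with a median of 0.01. SAMD9 fell by 0.67 and SAMD9L by 0.52. Both had positive changes in A549 (0.57 and 0.19), which were not called within that line (limma, adjusted p = 0.0525 and 0.618). SAMD9 missed the threshold without H2009, H441 or H460 (-0.62, -0.35 and -0.62) and SAMD9L without H460 (-0.32). HERC5, the third that fell, changed by -0.33, and its call was lost with any of 15 single arrays left out (-0.34 to -0.28) and without H2009 (-0.15) or H460 (-0.28). OASL rose by 0.35 (limma, adjusted p = 0.029), a call lost with any of 5 H441 arrays left out (0.29 to 0.33), with array weights (0.29) and without H441 (0.15) or H460 (0.30). Both arms carry a hairpin, so a response to hairpins in general would not appear in this difference. The δ193 and δscr sequences and the transcript sequences were not used here, and matches of the δ193 seed to the changed genes were not searched.

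**Figure D5:**
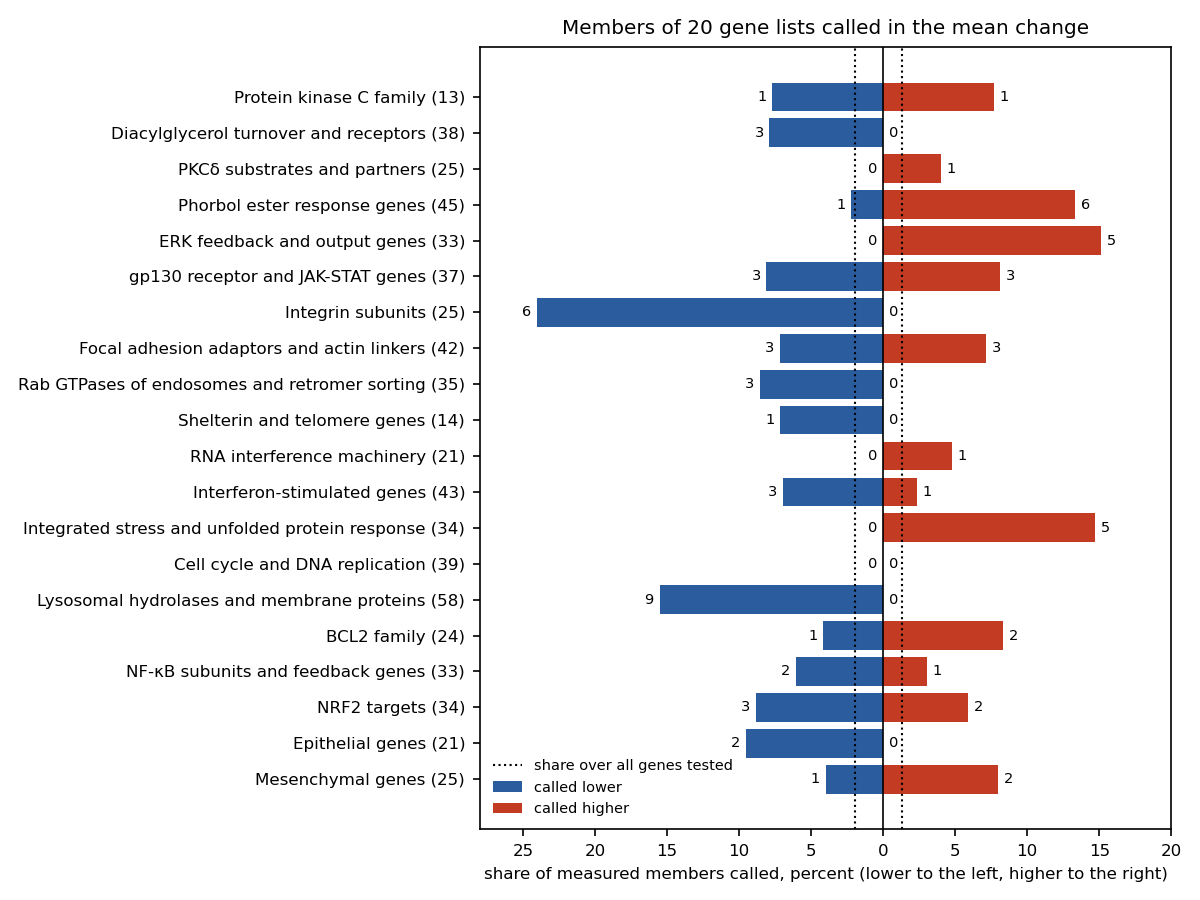
Share of the measured members of 20 gene lists (number measured in brackets) called lower, in blue to the left, or higher, in red to the right, in percent; numbers at the bars are counts of genes, and dotted lines mark 1.98% and 1.28%, the shares over all genes. Integrin subunits (6 of 25) and lysosomal genes (9 of 58) reach furthest to the left, and ERK output (5 of 33), stress response (5 of 34) and phorbol ester genes (6 of 45) furthest to the right.

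Other lists changed in few members or in both directions. Of 39 cell cycle and DNA replication genes 0 were called in limma, with 3 lower and 3 higher at an unadjusted p under 0.05, and PLK1 and TOP2A, which mark dividing cells, changed by 0.06 (SE 0.06) and -0.11 (SE 0.04). Of 24 BCL2 family genes, BNIP3L, a mitophagy receptor, fell by 0.57 (SE 0.08), and PMAIP1, the pro-apoptotic protein NOXA, rose by 0.44 with 1.09 in H441. MCL1 was the other member to rise. PMAIP1 was lost without H441 (0.22) or A549 (0.43). Of 33 NF-κB genes, 2 fell (CXCL1 and TNFAIP2, by 0.54 and 0.48) and 1 rose (IL6). Of 34 NRF2 targets, 3 fell and 2 rose, with ABCC3, an organic anion pump, at -0.53 and OSGIN1 at 0.37. CES1 was the other that rose, and HMOX1 and GCLC, the latter named after its values were seen, the others that fell (-0.39 and -0.33). The calls of HMOX1 and GCLC were lost with any of 16 and of 10 single arrays left out (-0.39 to -0.34 and -0.32 to -0.29). HMOX1 was lost without A549, H2009 or H460 (-0.26, -0.44 and -0.36) and with a trended and robust spread, and GCLC without H2009, H441 or H460 (-0.39, -0.30 and -0.14). ABCC3 was lost without H441 (-0.33) or H460 (-0.37) and OSGIN1 without H441 (0.25) or with array weights (0.31). Among 21 epithelial genes 2 fell, the ETS factor ELF3 by 0.60 (SE 0.09) and CDH1, E-cadherin, by 0.52 (SE 0.15). CDH1 changed by -1.20 in H441 and 0.12 in A549. It missed the threshold without any 1 of 3 H441 arrays (-0.48 to -0.46) and without H2009, H441 or H460 (-0.59, -0.29 and -0.46). Of 25 mesenchymal genes 2 rose and 1 fell. TNC, the matrix protein tenascin C, rose by 1.04 (SE 0.17), with 2.31 in H460 and 0.40 in A549, ZEB2 rose by 0.42 (SE 0.07), and S100A4 fell by 0.64 (SE 0.14). S100A4 was lost without H441 (-0.35) or H460 (-0.54) and ZEB2 missed the fold without H460 (0.31). With the mean over its clusters in place of the brightest one, ZEB2 changed by 0.22 and was not called. The intermediate filaments KRT8 and VIM changed by -0.05 and 0.20 (SE 0.04 each). TRPA1, an ion channel that senses reactive chemicals, had the largest mean increase of all genes, 1.34 (SE 0.15; limma, adjusted p = 1.51e-06); it lies outside the naming rule since its arrays were apart in 3 lines, with 1.92, 1.89, 0.46 and 1.11 in H2009, H441, A549 and H460.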

How the data were processed

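Total RNA of 24 samples was hybridized to Affymetrix Human Gene 1.0 ST arrays. The authors deposited log2 values of 33252 transcript clusters after RMA (background correction, quantile normalization and probe summary) in Affymetrix Power Tools; the sources used here give no versions. RMA compresses differences of dim genes. The arrays have no read depth, and their number limits the precision.

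Platform annotation gave 1 symbol for 19460 clusters, several for 1754 and none for 12038, and symbols were updated through Entrez ID for 19429. Of 769 genes with several clusters the one with the highest mean was kept, which left 18417 genes. Groups came from the sample titles. limma 3.58.1 in R 4.3.3 fitted cell line plus shRNA, with Benjamini-Hochberg adjustment over all genes; calls needed an adjusted p below 0.05 and a change of 1.25 fold or more. Differences between lines came from an F test on the interaction in a fit of the 8 group means. The scripts were tested on simulated data. Of 200 genes simulated to change 4 fold in 1 line only, 69 were called in the mean change, and all 200 passed the test between lines. A call in the mean alone thus does not show that the lines share a change.

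Named genes were PRKCD and the 15 largest mean decreases and increases among called genes with arrays apart in all 4 lines. Added to them were the 5 largest each way among called genes that differed between lines and had line changes of both signs. Per list, up to 4 called members of largest change were named and, where fewer were called, up to 2 others of highest mean. The members and lists were chosen with earlier results of these data known. Alternatives covered the model, spread, array scaling, a filter on dim genes, the cluster rule, the replicate block, thresholds, the methods' t-test, and each array and line left out. For list counts, leaving out arrays and lines was chosen after seeing the data. Array scaling moved the median change of all genes from 0.01 to 0.00 or 0.01. Promoter sequences were those of RefSeq (GRCh38.p14).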

Additional observations from a re-analysis of the deposited data

Results flagged for a closer look

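The change with δ193 differed between the 4 lines for 2595 of 18417 genes by the limma F test, and the genes named above that passed it are listed here with its adjusted p. No explanation was tested for any of them. The smallest values were 1.5e-13 for CES1, 2.58e-10 for FABP4, 2.99e-10 for CES1P1, 2.86e-08 for IL11, 6.02e-08 for ALDH1A1, 1.12e-07 for SPINK6, 1.07e-06 for ABI3BP, 8.34e-06 for SYT14, 9.78e-06 for HHIPL2 and 1e-05 for SAMD9. Next came 1.9e-05 for CP, 2.41e-05 for PON2, 2.74e-05 for GALC, 2.81e-05 for TNC, 7.67e-05 for S100A4, 0.000185 for ABCC3, 0.000203 for SPHK1, 0.000318 for STK38, 0.000327 for CTSH and 0.000333 for ITGB5. Values between these and the threshold began with 0.000337 for FERMT3, 0.000338 for SAMD9L, 0.000391 for OASL, 0.000586 for TMEM245, 0.000692 for PRKD1, 0.000964 for TRPA1, 0.00116 for CD274, 0.00122 for MGLL, 0.00122 for GCLC and 0.00127 for ITGAV. They went on with 0.00157 for LAPTM5, 0.00189 for HERC5, 0.00315 for ASAH1, 0.00528 for TNFAIP2, 0.00875 for SCARNA9L, 0.0102 for ITGB6, 0.0112 for TRIB3, 0.0116 for TNRC6C, 0.0133 for TNS3 and 0.0146 for ALDH1L2. Further values were 0.0148 for ITGA3, 0.015 for CALU, 0.0157 for PMAIP1, 0.0203 for SPRY2, 0.0204 for WARS1, 0.0205 for OSGIN1, 0.0213 for PHGDH, 0.0225 for ETV4, 0.0239 for RBFOX2 and 0.0261 for PRKCD. The largest values were 0.028 for RAB23, 0.0283 for IL6ST, 0.0287 for PLCE1, 0.0336 for ELF3, 0.0377 for ITGA2, 0.0424 for CDH1, 0.0429 for HES7, 0.0433 for MYPN, 0.0467 for ASNS and 0.0482 for OSM. CES1 and HHIPL2 changed most in A549, FABP4, SPINK6, PON2 and STK38 in H441, and TNC in H460. Of the 13792 transcript clusters without a single gene symbol, which entered no result above, 74 were called by the same model, 43 lower and 31 higher (0.537%), against 3.26% of the genes.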

How the results depend on the processing

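With the lines as replicates, 10 genes were called lower and 1 higher, and the same counts, 10 and 1, held for genes alike in direction and for genes with arrays apart in all lines. Array weights raised the genes that differed between lines to 4854. Leaving out a line asks for agreement in the other 3 only. Without H441, 262 genes were called lower, and 229 of them agreed in direction. Without H2009, 419 lower genes agreed in direction, 171 lower and 51 higher had arrays apart, 1693 differed between lines and 3 stress genes were called. Without H441, 52 higher genes had arrays apart, and 3 integrin and 5 lysosomal genes were called. Without A549, 356 genes were called higher, 426 lower and 326 higher genes agreed in direction, 209 and 130 had arrays apart, 1454 differed between lines, and 11 phorbol ester and 3 stress genes were called. Without H460, 57 higher genes had arrays apart, 1405 differed between lines, and 1 phorbol ester and 2 ERK genes were called. With no fold limit, 979 genes were lower and 807 higher, 717 and 595 agreed in direction and 46 higher genes had arrays apart. At a fold of at least 1.5 these counts were 73 and 55, 51 and 40, and, for arrays apart, 29 lower and 6 higher. The methods' t-test in each line, at their unadjusted threshold, gave 31 lower and 3 higher genes alike in all 4 lines, and 0 and 0 after Benjamini-Hochberg adjustment.

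With single arrays left out, the higher genes with arrays apart ran from 22 to 58, the lower ones from 86 to 106, genes called lower from 323 to 402, genes called higher from 217 to 262, lower genes alike in direction from 238 to 284, higher ones from 154 to 203, genes that differed between lines from 2136 to 3421, and the PRKCD change from -2.05 to -1.88. The list counts ran from 6 to 9 (phorbol ester), 4 to 6 (ERK), 5 to 7 (stress), 5 to 6 (integrin) and 6 to 10 (lysosome). The 58 was without the first A549 δscr replicate and the 3421 without the third H441 δ193 replicate. Replicate numbers are shared by the arms. Of 12 same-numbered pairs 2 had deviations that correlated above 0.1, and 5 of 12 δ193 arrays were closest to the δscr array of their number. These weak correlations do not settle whether the numbers pair the arrays. With the replicate block, 307 genes were lower and 207 higher, and 2430 differed between lines, and the calls of CES1 (limma, adjusted p = 0.107), CES1P1 (0.078), GCLC (0.0644), HERC5 (0.0855), OASL (0.0792), OSM (0.0638), SAMD9 (0.0669) and SPRY2 (0.0591) were lost. No result reversed under any alternative run. Of 96 named genes, the calls of 53 held with every single array and line left out, while a single array decided 10 and a line 43. Signal over background limits genes with low levels, for which changes may be understated.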
